A study of Homo sapiens with 5 samples.

Results

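The collagen and laminin chain genes were read from every probe set whose annotated symbol was a collagen alpha chain (COL, a number, A, a number) or a laminin alpha, beta or gamma chain (LAMA, LAMB or LAMC with a number). The rule found 135 probe sets of 53 genes among the 54675 probe sets of the array, whose probe sets with a single symbol cover 19775 genes. Of these, 112 probe sets belonged to 43 collagen genes and 23 to 10 laminin genes. Several probe sets read the same gene for 42 of the genes, so probe sets of a gene share their target and are not replicates of a condition. A chain was called bright where the mean signal of the control arrays was over 200. There were 20 bright probe sets of 11 genes, 9 collagen and 2 laminin, and the other 115 probe sets were dim.

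Collagens are trimers of alpha chains wound into a helix, and each family has its own form. Fibrillar chains build the tensile fibrils of bone, skin and vessel walls, collagen IV chains form the sheet of basement membranes, and fibril-associated chains sit on fibril surfaces. Laminins join an alpha, a beta and a gamma chain into a cross-shaped molecule of the basement membrane that integrins and dystroglycan bind. Ewing sarcoma is a small round cell tumour of bone and soft tissue that carries a fusion of EWSR1 with an ETS gene and usually lays down little matrix.

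The cells were MHH-ES-1, an established Ewing sarcoma line, and the study asked what either arm of miR-483, a microRNA encoded in an intron of IGF2, does to its transcripts. All groups were transfected with a lipid reagent and a synthetic mimic at 50 nM, and RNA was taken 48 hours later. The mimic was miR-483-5p (2 arrays), miR-483-3p (1 array) or a scrambled control (2 arrays). The second array of a pair is labelled a repeat, without saying whether it came from another culture, and the p-values therefore rest on the scatter of these arrays alone, which may be technical. There was 1 cell line and no untransfected or mock-transfected group among the samples used here, and the level of the mimics in the cells is not given by the arrays.

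Signals are linear intensities, scaled by the authors to one target on every array. Over the 32768 probe sets that passed a filter on low values, the correlation between arrays lay between 0.9695 and 0.9797, and the median signal of an array lay between 39.2 and 44.9. The 3′ to 5′ signal ratio was higher on every mimic array than on both control arrays: 1.09 and 1.10 with miR-483-5p and 1.06 with miR-483-3p against 1.02 and 0.996 for GAPDH, and 1.182, 1.073 and 1.093 against 1.065 and 1.04 for ACTB. Its part in the results was not tested. Ewing sarcoma markers were bright, with control means from 986 to 4797 for the 9 genes of 10 that had a probe set. None of 6 epithelial markers passed the filter, against 2 of 5 endothelial markers (PECAM1 and TEK), 1 of 4 blood markers (HBB) and 5 of 6 fibroblast markers. In such bulk RNA, fewer cells of a type and less RNA per cell cannot be told apart.

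Of the 53 chain genes, 42 had only dim probe sets in these cells. Of the 135 probe sets, 76 of 41 genes passed the filter and 59 did not. The 12 genes with no probe set past the filter were COL2A1, COL6A3, COL6A5, COL6A6, COL8A1, COL9A1, COL15A1, COL19A1, COL24A1, COL26A1, COL28A1 and LAMA1. The fibrillar family held 4 of the 11 bright genes and 11 of the 20 bright probe sets: COL1A1, COL3A1, COL5A1 and COL5A2. The other bright genes were COL4A1, COL4A2, COL6A1, COL9A3, COL21A1, LAMB1 and LAMC1. No anchoring or short-chain network collagen, transmembrane collagen, multiplexin or laminin alpha chain was bright, and their highest control means were 122, 82.8, 66.5 and 71.0. COL17A1 and LAMA3 were not analysed here.

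No chain probe set passed an adjusted p of 0.05 in limma's moderated test with Benjamini-Hochberg adjustment, for either mimic against the control or for the mimics against each other. Neither did any of the 32768 probe sets tested, a background of 0.00% in each comparison. At an unadjusted p under 0.05, miR-483-5p had 5 chain probe sets of 76 (6.58%), 3 higher and 2 lower than the control, beside a background of 8.33% (4.06% higher and 4.27% lower). For miR-483-3p the count was also 5 (6.58%), 1 higher and 4 lower, beside 5.60% (2.01% and 3.58%). Between the mimics it was 8 (10.5%), 5 higher and 3 lower in miR-483-5p, beside 5.71% (3.27% and 2.44%). The comparisons share arrays: both mimics were set against the same control arrays, and the miR-483-3p array stands alone.

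The bright chains of the miR-483-3p array lay mostly below the control arrays, while those of the miR-483-5p arrays lay on both sides. Differences are given as log2(signal + 32), which understates the change of dim genes. With miR-483-3p the median difference of the 20 bright probe sets was −0.20, with 4 above 0 and 16 below it, beside −0.0015 over the 11471 probe sets with a control mean over 200. Taking only the brightest probe set of each gene, 8 of the 11 genes lay below 0, with a median of −0.15. With miR-483-5p the median of all 20 bright probe sets was 0.02, with 11 above and 9 below, beside −0.01. Between the mimics it was 0.25 in the direction of miR-483-5p, with 18 above and 2 below, beside −0.01. Of the 20, 15 (75%) read outside both control arrays on the miR-483-3p array, where the background over probe sets of that brightness was 68.3%. Of these, 13 (65% of the 20) read lower, beside 34.5%, and 2 (10%) read higher, beside 33.8%. With miR-483-5p, 4 had both arrays above both controls and 2 below, 30% in all, where the background was 47.4%, with 22.7% higher and 24.7% lower. Between the mimics, 14 (70%) were higher in miR-483-5p and 0 lower, where the background was 65.2%, with 32.1% higher and 33.1% lower. The control arrays themselves differed by a median of 0.15 over these probe sets and the miR-483-5p arrays by 0.05. The miR-483-3p array lay 0.25 below the first control array and 0.14 below the repeat, so against the repeat the median gap was no wider than that between the controls.

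**Figure D1:**
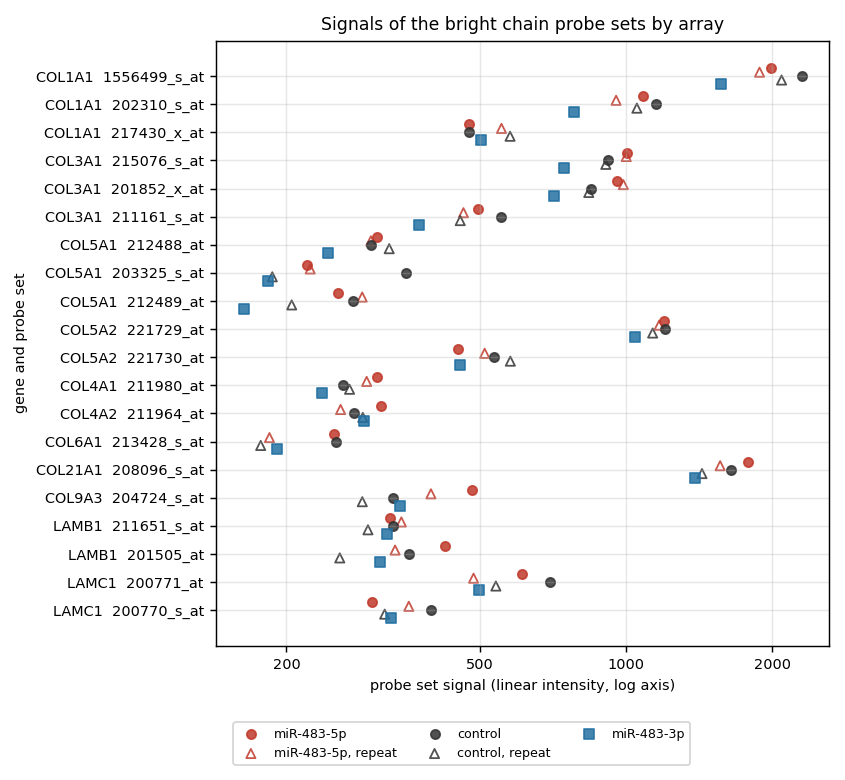
Signal of each of the 20 bright chain probe sets (rows) on the 5 arrays (x axis, linear intensity on a log axis), with filled circles for first arrays, open triangles for repeats and squares for the single miR-483-3p array. The square is leftmost in most fibrillar rows, as for COL1A1 202310_s_at, where it sits at 783 and the other arrays lie between 954 and 1152.

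**Figure D2:**
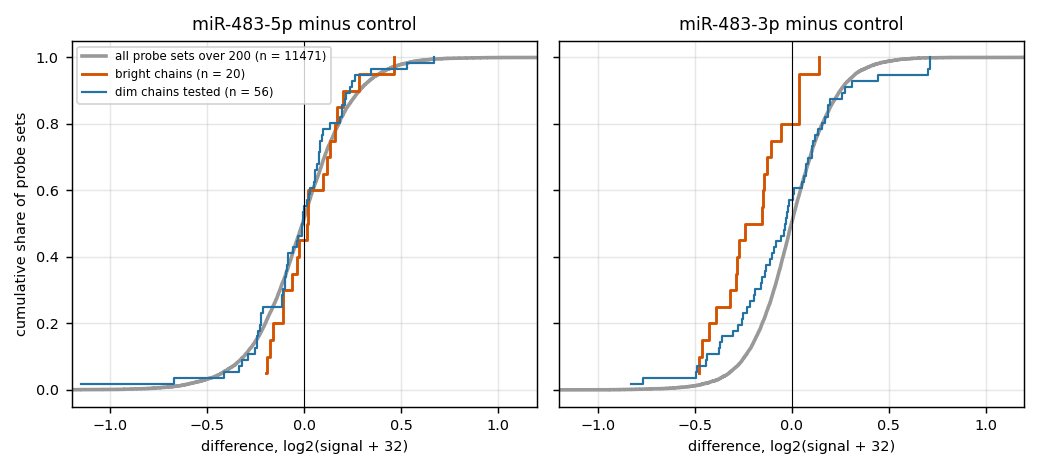
Cumulative share of probe sets (y axis) by log2 difference from the control (x axis), for bright chains, dim chains past the filter and all probe sets with a control mean over 200. The bright curve lies left of the grey curve for miR-483-3p, where its median is −0.20, and close to it for miR-483-5p, where its median is 0.02.

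The bright fibrillar probe sets read lower on the miR-483-3p array than in the control, without passing the adjusted test. All 11 bright fibrillar probe sets had a difference below 0, from −0.48 to −0.06 with a median of −0.32, beside 5767 of 11471 at that brightness. Of the 11, 10 (90.9%) read below both control arrays, beside a background of 34.5%. Set against each control array alone, the median was −0.29 with 10 of 11 lower, and −0.28 with 11 of 11 lower, while the controls differed by 0.08. All 11 also stayed below 0 with each array centred on its median (median −0.28) and with quantile normalization (−0.33). With the replicate block 10 of 11 did, at a median of −0.30. With miR-483-5p the same probe sets ran from −0.20 to 0.20, and their median was −0.04. None passed the adjusted test, and the 11 come from only 4 genes. Fibroblast markers accompany these genes in stroma. They summed to 745 on the miR-483-3p array, 788 and 916 on the control arrays and 877 and 902 on the miR-483-5p arrays. None of the 6 was listed at 0. They did not move alike: on the miR-483-3p array LUM and FAP read above both controls, and THY1 lay between them. DCN, PDGFRA and PDGFRB read below both. The part of these markers in the fibrillar difference was not tested.

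COL1A1 encodes the major chain of type I collagen, the main protein of bone. Its brightest probe set, 1556499_s_at, read 1984 and 1884 with miR-483-5p, 2299 and 2091 on the control arrays and 1567 with miR-483-3p. The miR-483-3p array was the lowest of the 5 and the miR-483-5p pair lay below the control pair. The difference was −0.48 (SE 0.19) for miR-483-3p, with an unadjusted p of 0.0412 and a limma adjusted p of 0.863, and −0.18 (SE 0.15, limma adjusted p 0.783) for miR-483-5p. A second probe set, 202310_s_at, read 1086 and 954 with miR-483-5p, 1152 and 1053 on the control arrays and 783 with miR-483-3p. It gave −0.48 (SE 0.20, limma adjusted p 0.879) for miR-483-3p, again the lowest array, while the miR-483-5p pair overlapped the control. The third, 217430_x_at, had another order: it read 475 and 554, 475 and 577, and 503, and all groups overlapped. The dim COL1A1 probe sets, 202311_s_at at a control mean of 139 and 202312_s_at at 26.2, gave 0.08 and 0.19 for miR-483-3p, so that 3 of the 5 lay below 0 and 2 above. COL1A2, which encodes the partner chain in type I collagen, had only dim probe sets, with control means of 110.1, 44.3 and 5.25. Its 202403_s_at read 95.9 and 83.4 with miR-483-5p, 110.0 and 110.2 on the control arrays and 97.1 with miR-483-3p, so both mimics read below the control pair.

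COL3A1 encodes the chain of type III collagen, which forms thin fibrils beside type I in soft tissues. Probe set 215076_s_at read 1004 and 1001 with miR-483-5p, 917 and 909 on the control arrays and 744 with miR-483-3p. No groups overlapped, and miR-483-5p stood highest. The differences were 0.13 (SE 0.15) for miR-483-5p and −0.28 (SE 0.18) for miR-483-3p, with limma adjusted p of 0.837 and 0.961. Probe set 201852_x_at had the same order, at 958 and 988, 848 and 838, and 709.8 on the last array. The gap between the mimics on it was 0.44 (SE 0.18), with an unadjusted p of 0.0488 and a limma adjusted p of 0.871. Probe set 211161_s_at read 495 and 463, 552 and 456, and 376, with miR-483-3p lowest and the other groups overlapping. The other 2 probe sets of COL3A1 were below the filter.

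COL5A1 and COL5A2 encode chains of type V collagen, which sets the width of fibrils. For COL5A1, 212488_at read 308 and 298 with miR-483-5p, 299 and 326 on the control arrays and 244 with miR-483-3p. Probe set 212489_at read 256 and 286, 274 and 205, and 164. Its difference between the mimics, 0.63 (SE 0.23), had an unadjusted p of 0.0283 and a limma adjusted p of 0.842. On both probe sets miR-483-3p lay below every other array, and miR-483-5p overlapped the control. The third COL5A1 probe set, 203325_s_at, read 352 on the first control array and 187 on the repeat, beside 221 and 224 with miR-483-5p and 184 with miR-483-3p. Its difference for miR-483-3p, −0.43, became −0.83 without the control repeat and −0.02 without the first control array. For COL5A2, 221729_at read 1195 and 1170, 1202 and 1135, and 1046, a difference of −0.16 for miR-483-3p. Its 221730_at read 452 and 512, 535 and 578, and 456, and there both mimics lay below the control pair, at −0.20 and −0.27. COL5A2 lies next to COL3A1 on chromosome 2 in the RefSeq annotation.

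**Figure D3:**
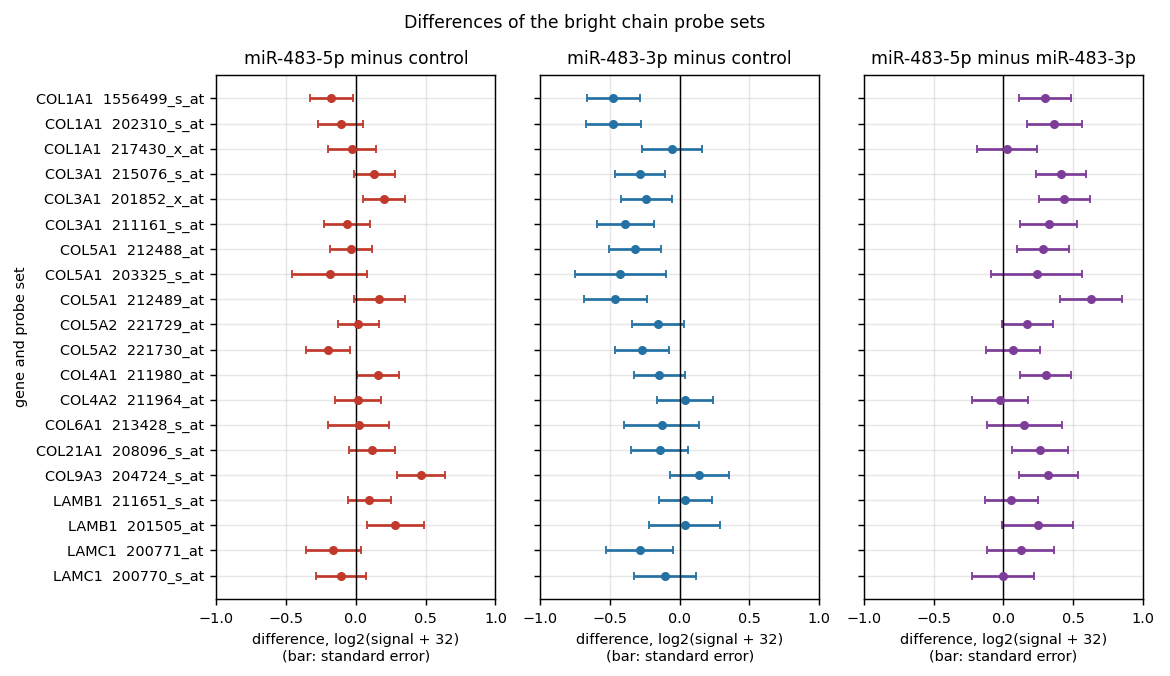
Differences in log2(signal + 32) with standard errors from the limma fit (x axis) for the 20 bright chain probe sets (rows), with a panel for each comparison. In the miR-483-3p panel the 11 fibrillar points lie between −0.48 and −0.06, and in the miR-483-5p panel COL9A3 stands highest at 0.46.

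The remaining fibrillar probe sets were dim, and 14 of them from 6 genes passed the filter. With miR-483-3p, 7 of the 14 lay above 0 and 7 below, with a median of −0.01, so the dim fibrillar probe sets were not mostly on the side where the bright ones lay. COL27A1, a fibrillar chain of cartilage, had its brightest probe set at 209 and 269 with miR-483-5p, 202 and 188 on the control arrays and 204 with miR-483-3p. Its 1564008_at read 31.4 and 50.9, 30.6 and 62.5, and 11.3, with a difference of −0.83 (SE 0.30, limma adjusted p 0.827) for miR-483-3p. The miR-483-3p signal of 1564008_at was under the filter level of 27.2, so this probe set passed only through the other arrays. The probe sets of COL27A1 did not share a direction for miR-483-3p.

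The collagen IV genes COL4A1 and COL4A2, whose products wind together in basement membranes, lie head to head on chromosome 13. The RefSeq tables put 126 bases between their starts, so that the windows of 120 bases before each start share 114 bases and the promoter is read on opposite strands. These windows are shown because both genes were bright and share that stretch. They are from GRCh38.p14, COL4A1 from chr13:110307158-110307277 on the minus strand and COL4A2 from chr13:110307164-110307283 on the plus strand. Capitals mark a CCAAT box (CCAAT or ATTGG) and a GC box (GGGCGG or CCGCCC).
COL4A1: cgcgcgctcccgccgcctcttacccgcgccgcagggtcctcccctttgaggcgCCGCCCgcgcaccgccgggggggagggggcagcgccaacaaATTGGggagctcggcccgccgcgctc
COL4A2: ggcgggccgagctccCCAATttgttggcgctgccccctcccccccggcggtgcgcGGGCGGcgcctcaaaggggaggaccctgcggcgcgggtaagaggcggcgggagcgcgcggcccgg
In COL4A1 the GC box begins at −67 and the CCAAT box at −26 from the start, and in COL4A2 the CCAAT box begins at −105 and the GC box at −65. These are the same letters read from either side. Over the 250 bases before the start, on both strands, a GC box was in 42.6% of the 35116 promoters, a CCAAT box in 32% and a TATA box (TATAAA or TTTATA) in 10.7%. The 9 entries of 6 bright chain genes held them in 7, 2 and 0, where COL1A1, COL3A1, COL5A2, COL6A1 and COL9A3 are not counted, and the 44 entries of 33 other chain genes in 24, 11 and 7. The entries of bright chain genes are not independent, since COL4A1 and COL4A2 share their boxes and the COL5A1 entries overlap. A match describes letters and is not a binding site.

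The brightest probe sets of the 2 genes differed in their order on the arrays, although no difference passed the adjusted test. Within each gene the order differed between its probe sets too. COL4A1 211980_at read 308 and 293 with miR-483-5p, 262 and 270 on the control arrays and 237 with miR-483-3p, so that miR-483-5p lay above the control and miR-483-3p below it. The differences were 0.16 (SE 0.15) and −0.15 (SE 0.18), with limma adjusted p of 0.803 and 0.995. COL4A2 211964_at read 313 and 259, 275 and 287, and 290, with differences of 0.01 and 0.04. The dimmer COL4A2 probe set 211966_at read 156 and 146, 168 and 164, and 181, with differences of −0.11 and 0.11. The dimmer COL4A1 probe set 211981_at read 83.2 and 173, 58.7 and 71.1, and 126, above the control with both mimics, by 0.67 (SE 0.28, limma adjusted p 0.599) and 0.70. Leaving out an array moved the first of these between 0.25 and 1.08. The dim collagen IV probe sets, 7 past the filter, had 6 above 0 and 1 below with miR-483-3p, and 2 above and 5 below with miR-483-5p. Of all 32768 tested probe sets, 16034 lay above 0 with miR-483-3p and 15328 with miR-483-5p.

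COL6A1 encodes a chain of the beaded filaments around cells. Its 213428_s_at, the bright probe set nearest above the limit with a control mean of 215, read 250.3 and 185 with miR-483-5p, 252 and 177 on the control arrays and 191 with miR-483-3p. The arrays of each pair differed more than the groups did. Its 7 dim probe sets disagreed: 212937_s_at read 9.8 and 26.8, 18.0 and 46.2, and 70.7, a difference of 0.72 for miR-483-3p, whereas 212091_s_at read 58.7 and 17.2, 70.1 and 36.2, and 17.1, a difference of −0.77. Both had signals under the filter level of 27.2 and passed only through their higher arrays. The others gave 0.31 (212938_at) and −0.01 (212940_at), and below the filter 0.27 (212939_at), 0.03 (214200_s_at) and −0.17 (216904_at). The next bright probe sets above the limit were COL5A1 212489_at at a control mean of 239.6 and COL4A1 211980_at at 266. Just below it were COL27A1 225293_at at 195, COL11A2 216993_s_at at 181 and COL4A2 211966_at at 166.

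Among the fibril-associated chains, COL9A3 gave the largest miR-483-5p difference of the bright probe sets. COL9A3 encodes a chain of type IX collagen, which coats cartilage fibrils. Its 204724_s_at read 481 and 397 with miR-483-5p, 332 and 287 on the control arrays and 343 with miR-483-3p. Each miR-483-5p array exceeded both controls, with a difference of 0.46 (SE 0.17), with an unadjusted p of 0.0327 and a limma adjusted p of 0.579, and without an array the difference ran from 0.33 to 0.59. The single miR-483-3p array exceeded both controls too, by 0.14. COL9A2, whose product joins the same molecule, read 105 and 135, 122 and 112, and 73.6 on 213622_at, a difference of 0.03 for miR-483-5p and −0.49 for miR-483-3p, and its 232542_at gave 0.19 and −0.04. COL21A1, a small fibril-associated chain, read 1779.5 and 1563, 1643 and 1434, and 1386, with differences of 0.12 and −0.14.

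COL12A1 and COL22A1, fibril-associated chains of tendon and of tissue junctions, gave the largest negative differences of the dim probe sets for miR-483-5p. COL12A1 234951_s_at read 11.2 and 15.5 with miR-483-5p, 97.2 and 46.2 on the control arrays and 46.4 with miR-483-3p. The difference for miR-483-5p was −1.15 (SE 0.25), with an unadjusted p of 0.00285 and a limma adjusted p of 0.518, and it lay between −1.51 and −0.79 without an array. The miR-483-5p signals were under the filter level of 27.2, so this probe set passed only through the arrays where it was high. The other 4 COL12A1 probe sets were below the filter: 231879_at, 225664_at and 233109_at gave 0.29, 0.20 and 0.10 for miR-483-5p, and 231766_s_at gave −0.02. COL22A1 242326_at read 25.3 and 47.5, 74.8 and 76.3, and 83.5, a difference of −0.67 (SE 0.20, limma adjusted p 0.528). The other COL22A1 probe sets past the filter, 228873_at and 243301_at, gave 0.34 and −0.09. COL18A1 209081_s_at, from the multiplexin whose end piece is endostatin, read 51.8 and 35.8, 67.2 and 53.4, and 44.1, with both mimics below the controls at −0.29 and −0.27, while its 209082_s_at gave 0.09 and 0.01.

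**Figure D4:**
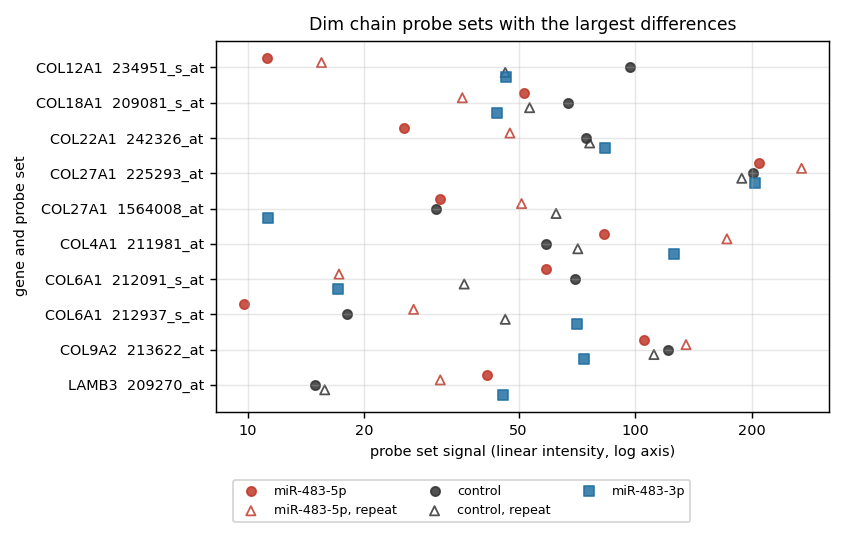
Signal on each array (x axis, linear intensity on a log axis) of the dim chain probe sets with the largest differences whose groups did not overlap (rows), with symbols by array. COL12A1 has its miR-483-5p arrays at 11.2 and 15.5, and LAMB3 has its control arrays at 14.9 and 15.8, below the mimic arrays.

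Of the laminin chains, only LAMB1 and LAMC1, the beta and gamma chains of the most widespread laminins, were bright. LAMB1 201505_at read 423 and 335 with miR-483-5p, 358 and 258 on the control arrays and 312 with miR-483-3p. LAMB1 211651_s_at read 327 and 345, 331 and 294, and 322. LAMC1 200771_at read 611 and 486, 697 and 539.7, and 498, and 200770_s_at read 300.4 and 357, 397 and 319, and 328. With miR-483-5p the groups overlapped on all 4 probe sets. With miR-483-3p they overlapped on 3, and LAMC1 200771_at read below both controls at −0.29 (SE 0.24, limma adjusted p 0.971). The median over the 4 was −0.01 for miR-483-5p and −0.04 for miR-483-3p.

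The dim laminin probe sets past the filter numbered 10, from 7 genes. With miR-483-3p 1 lay above 0 and 9 below, where 16734 of all 32768 tested probe sets lay below 0. Against both controls, 1 (10%) was higher, 5 (50%) were lower and 4 overlapped, beside a background of 32.5% higher and 35.6% lower. The 1 above 0 was LAMB3, the beta chain of the laminin that anchors epithelia. Its 209270_at read 41.5 and 31.4 with miR-483-5p, 14.9 and 15.8 on the control arrays and 45.5 with miR-483-3p, so that all mimic arrays lay above both controls. The differences were 0.53 (SE 0.16, limma adjusted p 0.532) and 0.71 (SE 0.20, limma adjusted p 0.758), with control signals under the filter level of 27.2, so this probe set passed only through the mimic arrays. LAMB2 216264_s_at, the beta chain of vessel, kidney and synaptic laminins, read 95.0 and 99.2, 78.7 and 76.9, and 61.7, in the order of the COL3A1 probe sets 215076_s_at and 201852_x_at. The alpha chains LAMA2, LAMA4 and LAMA5 had 5 probe sets past the filter, all below 0 with miR-483-3p, from −0.37 to −0.06. On 3 of these 5 the miR-483-3p array overlapped the controls.

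Over all 56 dim probe sets past the filter, the share without overlap was below the background for miR-483-5p and near it for miR-483-3p. This background is all tested probe sets and is not matched for brightness. Those with a control mean over 200 had 47.4% without overlap for miR-483-5p and 68.3% for miR-483-3p. With miR-483-5p, 5 were higher with no overlap, 8 lower and 43 overlapped (23.2% without overlap), where 39.8% of all tested probe sets had none (18.5% higher and 21.2% lower). With miR-483-3p, 15 were higher, 22 lower and 19 overlapped (66.1%), beside 68.1% (32.5% higher and 35.6% lower), and between the mimics 17 were higher in miR-483-5p and 17 lower, beside 65.8% (33.0% and 32.8%). The medians were −0.01, −0.03 and −0.01. Anchoring and short-chain network chains (COL7A1, COL8A2 and COL10A1) had 4 probe sets, all below 0 with miR-483-3p, and the dim collagen VI chains had 4 of 6 above 0. Of all 32768 tested probe sets, 16734 lay below 0 and 16034 above it with miR-483-3p.

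The genes that modify, export and bind the chains were followed in 6 lists, by the probe set of each gene with the highest mean, and no gene passed the adjusted test. Of the modification and folding enzymes, 13 of 18 were tested, and at an unadjusted p under 0.05 miR-483-5p had 0 higher and 3 lower, beside 4.06% and 4.27% of all tested probe sets, while miR-483-3p had none, beside 5.60%. CRTAP, part of the complex that hydroxylates a collagen proline, read 840.1 and 933 with miR-483-5p, 1291 and 1399.5 on the control arrays and 1019.5 with miR-483-3p. The differences were −0.59 (SE 0.16, limma adjusted p 0.521) and −0.39, but other CRTAP probe sets ran from −0.96 to 0.35 with miR-483-5p. PPIB, the cyclophilin of the same complex, read 1590.2 and 1689, 2163 and 2507, and 2292, a difference of −0.50 for miR-483-5p and −0.38 on its second probe set. P4HB, a subunit of prolyl 4-hydroxylase, gave −0.42, and P3H3, of the prolyl hydroxylase family, gave 0.75 with miR-483-5p, with both arrays above both controls at 10.7 and 67.7, and 0.59 with miR-483-3p, which overlapped them. The median of the list was 0.03 for miR-483-5p and 0.01 for miR-483-3p, beside −0.02 and −0.01 over all tested probe sets.

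In the secretion list all 12 genes were tested, and KLHL12, the adaptor that enlarges COPII coats for procollagen export, was the 1 gene at an unadjusted p under 0.05 for each mimic, beside 8.33% of all tested probe sets for miR-483-5p and 5.60% for miR-483-3p. KLHL12 225068_at read 854 and 799 with miR-483-5p, 381 and 451 on the control arrays and 739.5 with miR-483-3p. All mimic arrays lay above both controls, by 0.94 (SE 0.16, limma adjusted p 0.514) and 0.79 (SE 0.20, limma adjusted p 0.718), and the second probe set gave 0.13 and 0.39. MIA2, an export receptor partner, was dim and gave −0.27 and 0.46, with its miR-483-5p arrays at 24.5 and 18.1, under the filter level of 27.2. The list medians were −0.09 and −0.03.

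Of the processing and cross-linking genes, 8 of 15 were tested, with none at an unadjusted p under 0.05 and medians of 0.16 and −0.04. PCOLCE, which speeds removal of the procollagen end piece, gave 0.31 and 0.43, and LOX, a cross-linking oxidase, gave 0.24 with miR-483-5p. BMP1, the end-piece protease, gave −0.38 with miR-483-3p, and its other probe sets ran from −0.47 to 0.23. Of the collagen receptors, 5 of 7 were tested, with none and medians of 0.03 and −0.15. DDR2, a collagen receptor kinase, gave 0.30 with miR-483-5p, ITGA10 −0.17 with both mimics and ITGA2 −0.60 with miR-483-3p. Other DDR2 probe sets ran from −0.34 to 0.24 with miR-483-5p, and ITGA2 read 18.9 with miR-483-3p, under the filter level. Of the laminin receptors, 6 of 9 were tested, with 1 lower for miR-483-5p, ITGB4 at −0.39, beside 4.27% of all tested probe sets, none for miR-483-3p, and medians of −0.04 and 0.04. The other ITGB4 probe sets, all dimmer, ran from −0.23 to 0.41 with miR-483-5p. BCAM gave −0.42 with miR-483-5p, and ITGA7 and ITGA6 gave 0.29 and −0.32 with miR-483-3p, where ITGA6 read 19.1, under the filter level. Of the basement membrane partners, 8 of 9 were tested, with 1 higher and 1 lower for miR-483-5p, beside 4.06% and 4.27% of all tested probe sets, none for miR-483-3p, beside 5.60%, and medians of −0.03 and −0.15. NID1, which links laminin to collagen IV, read 666 and 595 with miR-483-5p, 502 and 437 on the control arrays and 554 with miR-483-3p, a difference of 0.40 for miR-483-5p. TINAGL1 gave −0.94 with miR-483-5p from arrays at 37.4 and 5.1. Their mean of 21.25 was under the filter level of 27.2, so TINAGL1 passed only through the other groups. NTN4 and AGRN gave −0.38 and −0.25 with miR-483-3p, and other AGRN probe sets ran from −0.34 to 0.53.

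**Figure D5:**
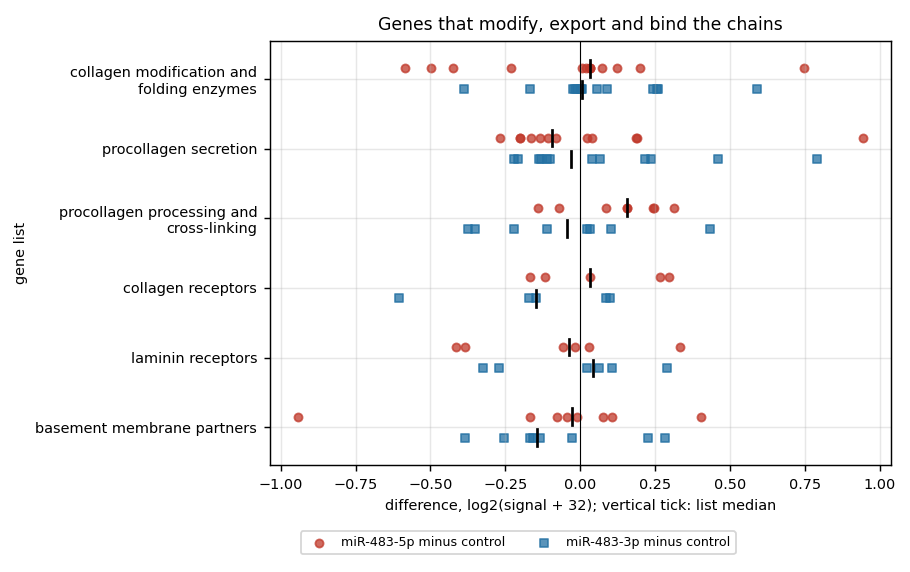
Difference in log2(signal + 32) from the control (x axis) of each tested gene in the 6 lists (rows), with circles for miR-483-5p, squares for miR-483-3p and a vertical tick at each list's median. KLHL12 stands at 0.94 and 0.79 in the secretion list, and the medians lie between −0.15 and 0.16.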

How the data were processed

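RNA of transfected MHH-ES-1 cells was hybridised to 5 Affymetrix 3′ expression arrays, per the labels' protocols. Each deposited value is the linear intensity of a probe set, and each array's trimmed mean is 150, so the authors had scaled them; the signal algorithm and detection calls are not given in the sources used here, and GCOS and Partek stand in the submitters' processing notes without roles. Probe sets were named by the platform annotation (outside controls, 41091 with 1 symbol, 1801 with several, 11721 with none); 1 probe set shared between LAMA5 and its antisense gene was left out. Here log2(signal + 32) of the deposited intensity entered a limma model (version 3.58.1, R 4.3.3) of group means with Benjamini-Hochberg adjustment, two-sided, over the 32768 probe sets at or above the 40th percentile of mean log2 signal. Residual degrees of freedom were 2, and the single miR-483-3p array is assumed to vary like the pairs. Precision is limited by having 5 arrays. The fit was tested on simulated data only for whether the median estimate matched the change put in. Named probe sets are all of each bright gene, the 6 dim ones per mimic with the largest non-overlapping difference, the 3 on each side of the brightness limit, and the 2 lowest-p genes per list and mimic; COL1A2, LAMB2 and others named beside them were chosen after their values were seen. Members and lists were chosen with earlier results of these data known. Alternatives covered the pseudocount, filter, scaling, brightness limit, gene level, replicate block and leaving out an array.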

Additional observations from a re-analysis of the deposited data

How the results depend on the processing

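No chain probe set passed the adjusted limma test under any alternative run. The filter set how many chain probe sets were tested: 76 in the main run, 135 with no filter and 39 with the 60th percentile filter. Counts under the filters are therefore out of different totals. For no alternative is the share over all tested probe sets given beside its count, so a changed count is no result about the chains. At an unadjusted p under 0.05, the 5 probe sets for miR-483-5p became 2 with the 60th percentile filter and 3 with a pseudocount of 1, and 4 to 7 without an array. The 5 for miR-483-3p became 10 with no filter, 3 with the 60th percentile filter, 3 with a pseudocount of 100 and 10 with the replicate block, and 4 to 9 without an array, with 9 without either miR-483-5p array. The 8 between the mimics became 5 with the 60th percentile filter and 3 to 5 without any 1 of the paired arrays, with 3 without the miR-483-5p repeat. The median of the bright chains ran from 0.0004 to 0.10 (without the first control array) for miR-483-5p, −0.25 to −0.14 for miR-483-3p and 0.18 to 0.34 between the mimics without an array. For miR-483-3p the median was −0.28 with the limit at 400, −0.14 at 100 and −0.16 with brightness taken from the mean over all arrays. In the same order it was −0.05, −0.01 and 0.02 for miR-483-5p, and 0.28, 0.16 and 0.25 between the mimics. The replicate block gave −0.24 for miR-483-3p and 0.35 between the mimics. It sets first arrays against repeats, which share only a number; their deviations correlated at 0.17 between the groups. The cause of these changes was not tested. Signs of named probe sets differed under some alternatives in 24, 18 and 15 of 439 values per comparison, for miR-483-5p, miR-483-3p and between the mimics. With 5 arrays and no detection calls, dim signals have no known floor.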
